A study of Mus musculus with 6 samples.

Results

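Interferon-stimulated genes were examined in wound tissues of db/db mice, a diabetic line that lacks working leptin receptor. The group was 41 genes taken from a fixed list of interferon targets, 27 that are known chiefly as targets of type I interferon and 14 known chiefly as targets of interferon-gamma (IFN-gamma). All 41 were found by symbol among the 33184 genes of the FPKM table (mapped fragments per length of gene and per size of library, a level that can be compared between genes). All 41 also passed the filter on low values, which asked for an average of 0.5 FPKM or more, as did 16005 genes in total.

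RNA-seq was performed on 6 libraries, 3 labelled NC and 3 labelled SFRP2-siRNA. Every mouse was db/db and received a round full-thickness wound of 6 mm on the back. At dpi1 (1 day post-injury) 2′OMe-modified siRNA was injected around the wound, either a control sequence (NC) or siRNA targeting SFRP2, and tissues were collected at dpi4, although the titles carry day 3. Age and sex were not given in the sources used here. Nothing states that each library was a separate mouse, so p-values measure only the spread between these libraries. The 3 SFRP2-siRNA titles share their numbering with 3 SFRP2 siRNA sequences, and which library received which sequence was not stated.

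Interferons are cytokines that cells release on sensing viral or misplaced nucleic acids. Type I interferon (interferon-alpha and interferon-beta) acts through a complex with STAT2 and IRF9 that binds the interferon-stimulated response element (ISRE). IFN-gamma, made mainly by T and NK cells, acts through the gamma-activated site (GAS) and is a classical activator of macrophages. Many targets answer to both, so the class of a gene names its best-known inducer only.

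Before the levels, the sequences next to the gene starts are shown, since ISRE and GAS are elements of promoters. RefSeq promoter windows (GRCm38.p6, 250 bases before to 50 after each start) were matched by symbol for 33 of the 41 members, 20 type I and 13 IFN-gamma. The ISRE core was searched as GAAANNGAAA and GAS as TTCNNNGAA, on both strands. The ISRE core was found for 17 of the 33 members and for 3.99% of the 27025 genes with a window. GAS was found for 11 members and for 9.55% of all genes. By class, 10 of 20 type I and 7 of 13 IFN-gamma members held the ISRE core, and 5 and 6 held GAS. In 5 members both were present and in 10 neither, which says only that these letters were not in these windows.

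Of these promoters, 6 are printed as the 150 bases before the start, 5′ to 3′ on the strand of the gene, with each match in capitals. They were chosen, after their levels had been seen, to show the arrangements in both classes. Isg15 (chr4:156200819-156200968, minus strand), the type I target with a run of overlapping ISRE cores, Bst2 (chr8:71537473-71537622, minus strand), where GAS runs into the ISRE core, and Ifit1 (chr19:34640739-34640888, plus strand), with a pair of ISRE cores on the opposite strand, come first. The IFN-gamma members follow: Irf1 (chr11:53769864-53770013, plus strand) with GAS alone, Gbp7 (chr3:142530186-142530335, plus strand) with both elements, and Irgm1 (chr11:48871421-48871570, minus strand) with overlapping ISRE cores close to the start.
Isg15: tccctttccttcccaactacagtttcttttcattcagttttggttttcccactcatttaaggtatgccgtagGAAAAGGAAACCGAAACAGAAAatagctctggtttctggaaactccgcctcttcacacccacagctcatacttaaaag
Bst2: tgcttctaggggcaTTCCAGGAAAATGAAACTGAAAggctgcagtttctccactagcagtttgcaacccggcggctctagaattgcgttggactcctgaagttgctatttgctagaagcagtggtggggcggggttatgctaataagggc
Ifit1: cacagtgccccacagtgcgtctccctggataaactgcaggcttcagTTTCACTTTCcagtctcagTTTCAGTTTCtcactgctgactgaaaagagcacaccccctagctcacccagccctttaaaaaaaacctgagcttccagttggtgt
Irf1: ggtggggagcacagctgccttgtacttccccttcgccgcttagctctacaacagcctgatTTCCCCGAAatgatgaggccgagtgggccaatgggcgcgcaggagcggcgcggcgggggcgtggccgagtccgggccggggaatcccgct
Gbp7: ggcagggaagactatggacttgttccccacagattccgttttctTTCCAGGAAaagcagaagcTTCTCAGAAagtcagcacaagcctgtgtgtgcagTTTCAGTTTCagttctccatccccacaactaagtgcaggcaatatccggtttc
Irgm1: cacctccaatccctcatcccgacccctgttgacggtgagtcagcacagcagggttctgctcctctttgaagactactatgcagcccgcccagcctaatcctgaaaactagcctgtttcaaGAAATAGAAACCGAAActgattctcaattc

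Many members are also neighbours in the genome. By RefSeq positions on GRCm38.p6, 23 of the 41 lay within 1 Mb of another member, in 9 clusters. Ifit1, Ifit2 and Ifit3 lie together on chromosome 19, Oas1a, Oas2 and Oas3 on chromosome 5, Gbp2, Gbp3, Gbp5 and Gbp7 on chromosome 3, and Psmb8, Psmb9 and Tap1 on chromosome 17. Several have close copies beside them (Ifit3 and Ifit3b, Oas1a and Oas1g, the Gbp genes), and reads may be split between copies, so the level of each of these alone is uncertain.

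The libraries held totals of 42.9 M to 47.1 M reads, as implied by the FPKM values and gene lengths, and 26081 to 27189 genes above 0. Whole read numbers could be recovered for 39 members, with 38 to 5513 reads per member and library and a median of 970.5. The siRNA target was checked first. Sfrp2, a secreted modulator of wnt signalling, had 11.6, 40.6 and 14.1 FPKM in NC 1, 2 and 3, and 50.6, 54.6 and 55.2 in those with the SFRP2-siRNA label. The target thus went against the SFRP2-siRNA label, and NC 2 was nearer to the libraries with that label than to NC 1 and NC 3. These are RNA levels, whereas the paper reported less SFRP2 protein by immunofluorescence in wounds of diabetic mice given SFRP2 siRNA. Whether the labels are correct cannot be told from these values, so directions below refer to the labels alone, and siRNA-labelled stands for the 3 libraries labelled SFRP2-siRNA. The library labelled SFRP2-siRNA 1 stood apart, with correlations of 0.889 and 0.893 to its own group, where other pairs within a group reached 0.964 to 0.976. The 9 hair follicle keratin and keratin-associated genes summed to 22.1 FPKM in SFRP2-siRNA 1 against 2537 to 5245 elsewhere. Keratinocyte genes, which define skin, were present in every library, with sums of 4399 to 8075 FPKM.

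The interferon-stimulated genes were on average higher in libraries with the SFRP2-siRNA label, but not beyond the spread of the NC libraries. The log2 fold change was above 0 for 40 of the 41 members, where 71.8% of all genes were above 0. No member passed the threshold (adjusted p under 0.05 and absolute log2 fold change above 1, limma), and neither did any other gene (0%). With another test, DESeq2, the paper reported genes past these thresholds in both directions in dpi4 wound tissues, so the outcome here differs from the paper's. No member reached an unadjusted p under 0.05 either, where 6.72% of all genes did so as higher, and the lowest was 0.0568 for Irf8. In no member were the groups separated, although 13.9% of all genes were higher in every siRNA-labelled library than in every NC library. Exact permutation p-values of single members ran from 0.2 to 1, and 0.1 is the smallest that 3 against 3 libraries allow.

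The values of single libraries showed that NC 2 carried levels like those of the siRNA-labelled libraries. NC 2 was the highest NC library for all 41 members, which held for 33.2% of all genes, and the highest of all 6 libraries for 27 members, which held for 7.07% of all genes. It was exceeded by 1 siRNA-labelled library in 11 members and by 2 in the remaining 3. Its level was 1.3 to 3.81 times that of the next NC library, with a median of 2.45. NC 1 was the lowest of the 6 libraries in 36 members, against 46.9% of all genes. Members share these libraries, so the counts describe 1 pattern and not independent observations.

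**Figure D1:**
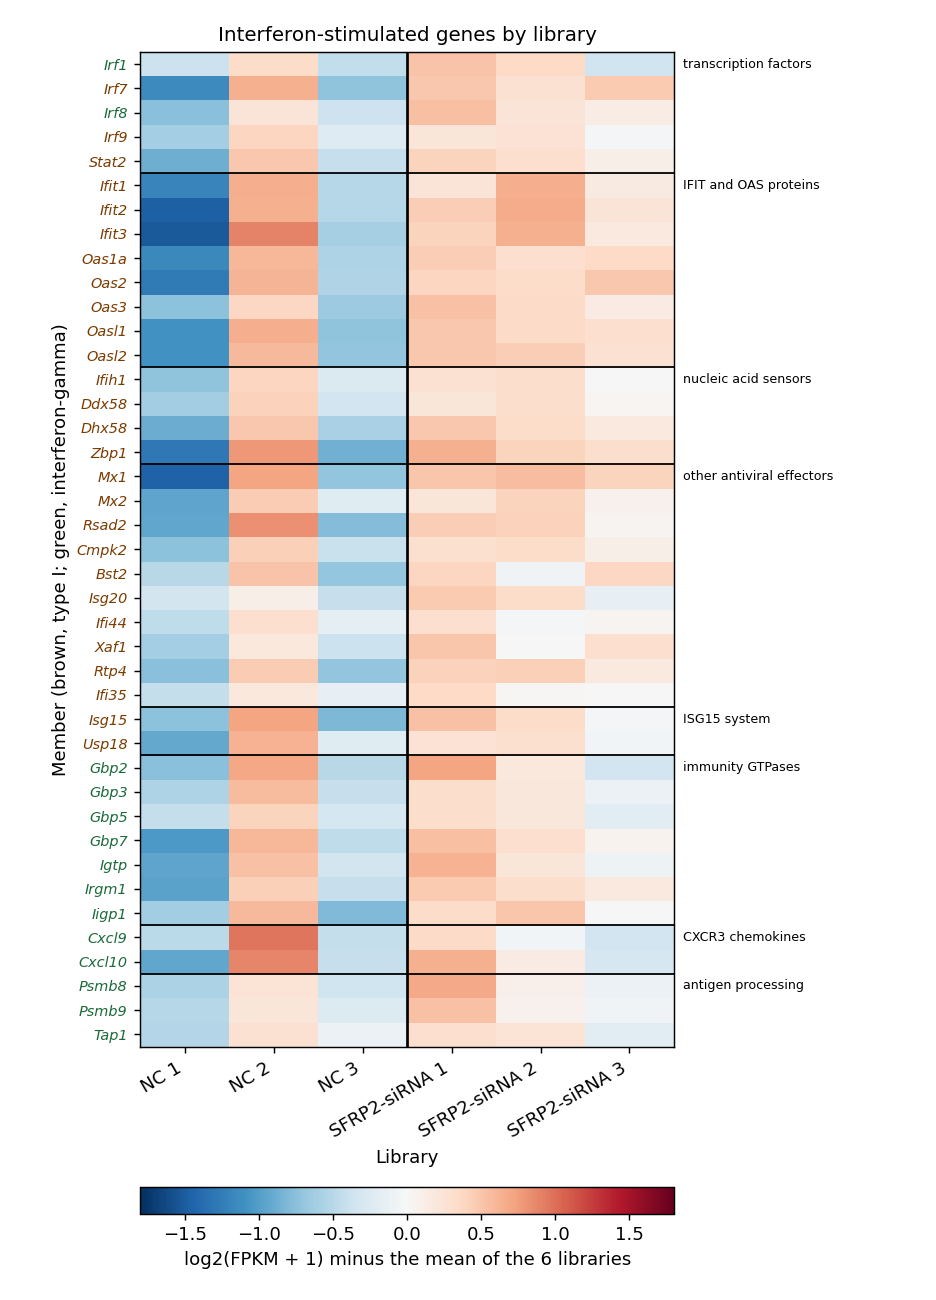
Heat map of log2(FPKM + 1) minus the mean of the 6 libraries, with 1 line per member ordered by role and 1 column per library; names of type I members are brown and those of IFN-gamma members green. NC 1 and NC 3 are blue throughout, whereas NC 2 is red for all 41 members.

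The type I transcription factor Irf7, the master regulator that amplifies interferon-alpha production, had 8.34, 31.2 and 11.6 FPKM in NC 1, 2 and 3, and 28.1, 24.1 and 27.6 in those labelled SFRP2-siRNA. The siRNA-labelled libraries lay close together, while the NC values spanned from the lowest to the highest of all 6. This gave 17.0 ± 12.3 FPKM for NC and 26.6 ± 2.21 for the siRNA-labelled libraries (SD, n = 3 each). Irf8, a myeloid transcription factor induced by IFN-gamma, had 2.2, 5.32 and 3.14 FPKM in NC and 6.81, 5.31 and 4.89 in those labelled SFRP2-siRNA. Here NC 2 lay just above the middle siRNA-labelled library, so the groups overlapped. Its log2 fold change was 0.60 (SE 0.26). Irf1, the first IFN-gamma-induced factor of this family and the gene with GAS alone above, had a log2 fold change of 0.33 (SE 0.30), and Irf9 and Stat2, which pair in the type I complex, had 0.31 and 0.54.

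IFIT proteins bind foreign RNA and block its translation, and OAS proteins make the second messenger that activates the nuclease RNase L. These 8 type I members had the highest median log2 fold change of any role with 3 or more members, 0.79, with a range of 0.68 to 0.90. Ifit3, their most abundant gene, had 4.74, 29.3 and 9.79 FPKM in NC and 20.7, 24.5 and 17.5 in those labelled SFRP2-siRNA. NC 2 was again the highest library and NC 1 the lowest. Ifit1, whose paired ISRE cores are printed above, had 2.51, 11.5 and 4.58 FPKM in NC and 8.37, 11.6 and 7.89 in the siRNA-labelled libraries. Oas3 had 0.843, 3.01 and 0.963 FPKM in NC and 3.43, 2.93 and 2.42 in the siRNA-labelled libraries. In Oasl2, an OAS-like relative, NC held 3.18, 12.2 and 4.42 FPKM and the siRNA-labelled libraries 11.4, 11.1 and 9.73. For these genes NC 2 sat inside or above the siRNA-labelled range, and the unadjusted limma p was 0.0629 for Oas3 and 0.0872 for Oasl2.

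Of the cytosolic nucleic acid sensors, Ddx58 (RIG-I) and Ifih1 (MDA5) detect viral RNA, Dhx58 (LGP2) regulates both, and Zbp1 senses Z-form nucleic acid and triggers cell death. Zbp1, the most abundant of the 4, had 2.35, 13.0 and 3.49 FPKM in NC and 11.7, 9.77 and 9.14 in those labelled SFRP2-siRNA. Dhx58 had 1.79, 6.2 and 2.43 FPKM in NC and 6.2, 5.5 and 4.83 in the siRNA-labelled libraries. NC 2 was the highest library for all 4 sensors. Their log2 fold changes ranged from 0.38 for Ddx58 to 0.91 for Zbp1.

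The other antiviral effectors included the most and the least abundant member. Bst2 (tetherin), which holds budding virus on the cell surface, had 41.5, 85.1 and 36.2 FPKM in NC and 78.1, 56.5 and 77.0 in those labelled SFRP2-siRNA. The library labelled SFRP2-siRNA 2 was thus nearer to NC 1 than to NC 2. Ifi44 was the lowest, with a mean of 0.596 FPKM. Mx1, a dynamin-like GTPase that traps viral nucleocapsids, had the largest log2 fold change of the 41 members, 0.97 (SE 0.50), from 0.767, 6.92 and 1.97 FPKM in NC to 5.89, 6.11 and 5.43. Xaf1, a pro-apoptotic interferon target, had 5.12, 9.64 and 6.16 FPKM in NC and 12.2, 8.24 and 10.51 in the siRNA-labelled libraries, an unadjusted p of 0.0641 by limma. Rtp4, a chaperone of receptors with antiviral activity, had 6.02, 15.3 and 6.24 FPKM in NC and 14.8, 15 and 12.4 in the siRNA-labelled libraries.

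ISG15 is a ubiquitin-like protein that is attached to newly made proteins, and USP18 removes it and also blocks signalling from the type I receptor. Isg15, with the run of ISRE cores printed above, had 16.0, 45.4 and 15.3 FPKM in NC and 40.1, 34.9 and 27.1 in those labelled SFRP2-siRNA. All siRNA-labelled libraries exceeded NC 1 and NC 3, and none reached NC 2. Mean levels were 25.6 ± 17.2 FPKM in NC and 34.03 ± 6.58 in the siRNA-labelled libraries (SD, n = 3 each). Usp18 had 1.32, 5.79 and 2.78 FPKM in NC and 4.23, 4.35 and 3.25 in the siRNA-labelled libraries, again all below NC 2.

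**Figure D2:**
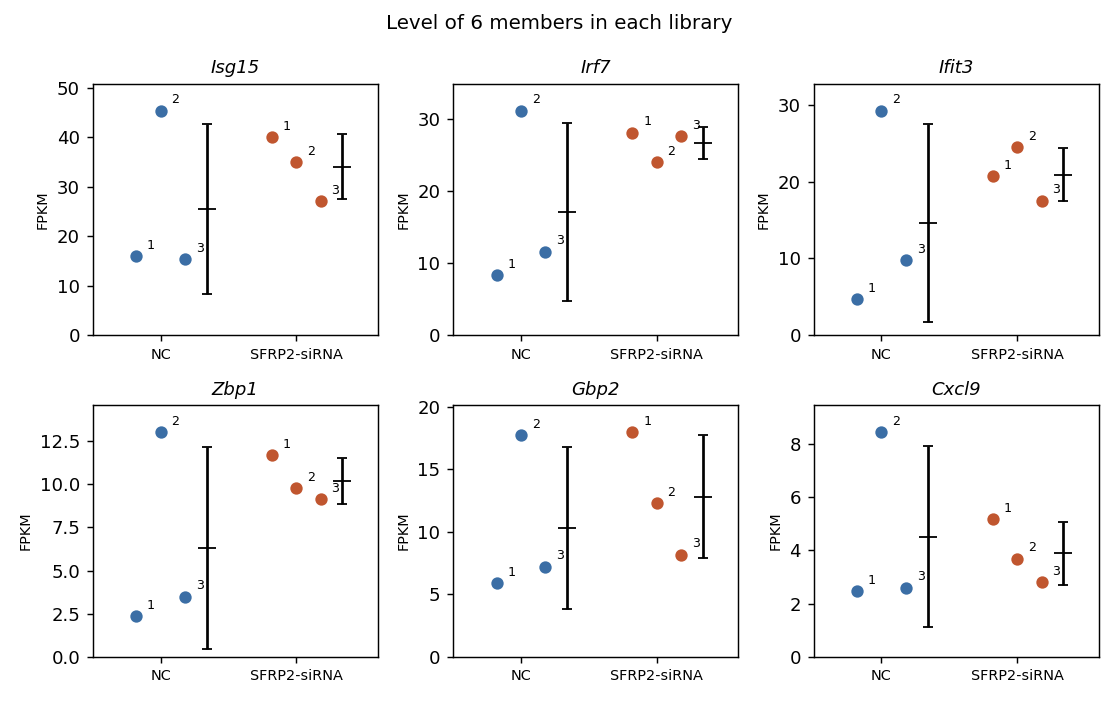
FPKM of 6 members, 1 panel each, in the NC (blue) and SFRP2-siRNA (orange) libraries, numbered by replicate, with black bars for mean and SD of the 3 libraries of a group. In each panel NC 2 lies far above NC 1 and NC 3, and in Gbp2 and Cxcl9 the siRNA-labelled libraries reach down towards those low values.

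The 14 IFN-gamma members showed the same high NC 2 library but a wider spread among the siRNA-labelled ones. GBP and IRG proteins are GTPases that attack the vacuoles of intracellular pathogens. Gbp2, the most abundant of the 7 listed, had 5.88, 17.7 and 7.21 FPKM in NC and 17.9, 12.3 and 8.17 in those labelled SFRP2-siRNA. The level in SFRP2-siRNA 3 was therefore close to NC 3. Irgm1 had 2.56, 8.29 and 4.19 FPKM in NC and 8.62, 7.61 and 6.79 in the siRNA-labelled libraries, and Iigp1 had 1.93, 5.73 and 1.59 in NC and 4.66, 5.4 and 3.54. Gbp7, whose promoter holds both elements, had a log2 fold change of 0.60 (SE 0.40).

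Cxcl9 and Cxcl10 encode ligands of CXCR3, which draw activated T and NK cells. Cxcl9 was the single member with a log2 fold change below 0, at -0.03 (SE 0.41). It had 2.48, 8.44 and 2.6 FPKM in NC and 5.17, 3.69 and 2.81 in those labelled SFRP2-siRNA. Cxcl10 had 2.01, 9.68 and 3.33 FPKM in NC and 7.99, 5.38 and 3.68 in the siRNA-labelled libraries. For both chemokines NC 2 was the highest library, at 3.24 and 2.9 times the next NC library, and SFRP2-siRNA 3 was near NC 3.

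Psmb8 and Psmb9 are subunits of the immunoproteasome, and Tap1 carries its peptides to MHC class I. Psmb8 had 3.24, 6.47 and 3.92 FPKM in NC and 9.06, 5.69 and 4.85 in those labelled SFRP2-siRNA. Psmb9 had 3.24, 6.03 and 4.11 FPKM in NC and 7.77, 5.42 and 4.82 in the siRNA-labelled libraries. Tap1 had 5.99, 11.2 and 8.36 FPKM in NC and 11.5, 11.02 and 7.88 in the siRNA-labelled libraries. In these 3 genes the highest library was the one labelled SFRP2-siRNA 1 and NC 2 came second, at only 1.34 to 1.65 times the next NC library.

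Type I and IFN-gamma members were then compared. The median log2 fold change was 0.60 over the 27 type I members and 0.37 over the 14 IFN-gamma members, against 0.13 over all 16005 genes. Relative to all genes these were 0.47 and 0.25, a difference of 0.23 between the classes. The difference was 0.12 without the library labelled SFRP2-siRNA 3 and 0.34 without SFRP2-siRNA 1. It was 0.10 when 11 members that both interferons induce well were left out. The IFN-gamma median was 0.04 relative to all genes without SFRP2-siRNA 1, and no p-value was computed for these medians.

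Within the siRNA-labelled group the classes differed in spread. The coefficient of variation between siRNA-labelled libraries had a median of 13.8% over type I members and 26.8% over IFN-gamma members. SFRP2-siRNA 1 was the highest siRNA-labelled library in 13 of 14 IFN-gamma and 15 of 27 type I members, against 39.3% of all genes. SFRP2-siRNA 3 was the lowest in 14 of 14 and 21 of 27, against 28.9% of all genes. The further targets described below did not repeat this contrast. SFRP2-siRNA 1 was the highest siRNA-labelled library in 15 of 24 IFN-gamma and 37 of 46 type I targets there. SFRP2-siRNA 3 was the lowest in 20 of 24 and 37 of 46. Macrophage markers had SFRP2-siRNA 1 highest in 13 of 14. In the NC group the type I members had the larger spread, with medians of 72.1% against 58.8% for the IFN-gamma members. The mean over members of the log2 level, centred on the 6 libraries, was -0.91, 0.52 and -0.51 in NC and 0.40, 0.33 and 0.17 in the siRNA-labelled libraries for type I. For IFN-gamma it was -0.68, 0.50 and -0.40 in NC and 0.49, 0.22 and -0.12 in the siRNA-labelled libraries.

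Leaving out NC 2 moved the counts of members more than leaving out any other library, while the difference between the classes was then 0.31. Among 2 NC and 3 siRNA-labelled libraries, 36 of 41 members had an unadjusted limma p under 0.05, all as higher, where 9.78% of all genes did so. In 40 members every siRNA-labelled library exceeded both NC libraries, where 25.8% of all genes showed this, and the exception was Tap1. NC 2 was the highest NC library for all 41 members, so leaving it out had to raise each fold change and narrow the NC range. These counts therefore follow from the pattern already described and add no separate evidence of a difference between the labels. The lowest adjusted p of a member was still 0.257, so none passed the threshold. The median log2 fold change was 1.05 for type I and 0.75 for IFN-gamma members, or 0.93 and 0.62 relative to all genes. Mx1 then had 1.57 (SE 0.24), Zbp1 1.52 (SE 0.19), Isg15 1.05 (SE 0.21) and Cxcl9 0.44 (SE 0.23). Labels give no ground to drop NC 2. Its separation from NC 1 and NC 3 was seen in the members themselves and in Sfrp2, at 40.6 FPKM against 11.6 and 14.1. It was also seen in macrophage and fibroblast markers outside the members, but not in the markers of every cell type. Macrophage markers summed to 1114, 1802 and 1199 FPKM in NC 1, 2 and 3, and fibroblast markers to 936, 2006 and 1050. NC 2 was the highest NC library in 13 of 14 and 9 of 10 of these markers, against 33.2% of all genes. This held for 7 of 10 endothelial and 4 of 6 T and NK cell markers. It held for only 4 of 12 neutrophil, 1 of 10 keratinocyte and 1 of 10 adipocyte markers. Among skeletal muscle and hair follicle markers it held for 0 of 9 each. The values from all 6 libraries therefore stand as the result.

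**Figure D3:**
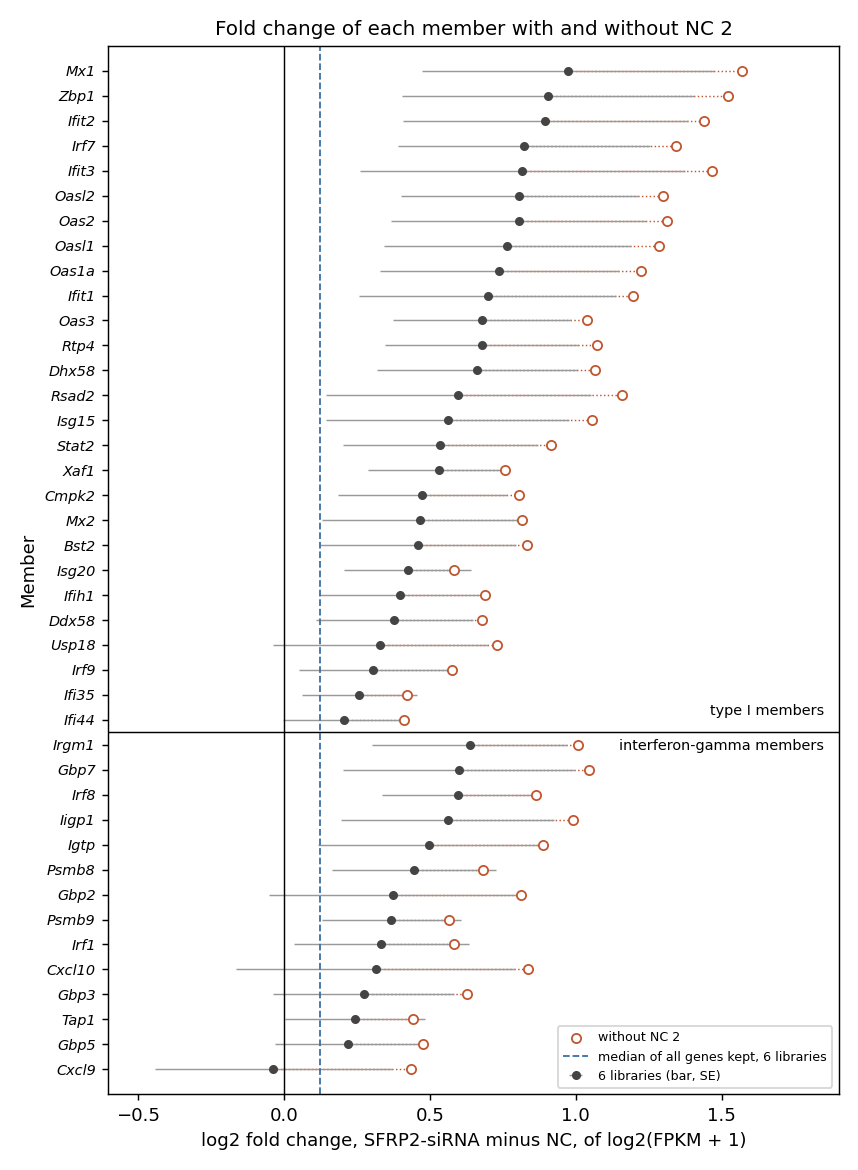
Log2 fold change of each member (SFRP2-siRNA minus NC, on log2(FPKM + 1)) from all 6 libraries (black, bar for SE) and without NC 2 (open orange circles), with the dashed line at the median of all genes, 0.13. Each member moves to the right without NC 2, as it must where NC 2 is the highest NC library. Mx1 moves to 1.57, and Cxcl9 from -0.03 to 0.44.

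The genes upstream of the members were examined next. Interferon transcripts were near the limit of detection. Ifng had 1, 0 and 0 reads in NC and 5, 2 and 2 in those labelled SFRP2-siRNA, and Ifnb1 had 2, 2 and 0 reads in NC and 4, 2 and 0. Ifnk, the interferon of keratinocytes, had 0, 2 and 0 reads in NC and 6, 10 and 3. Ifnz had 2, 0 and 3 reads in NC and 1, 1 and 3 in the siRNA-labelled libraries, and Ifnab 1, 3 and 0 reads against none. Ifng and Ifnk were thus higher in every siRNA-labelled library than in every NC library, but a count of 0 allows up to 3 reads per library, most of these counts lie near that limit and none of the ligands passed the filter, so they were not tested. These limits cover counting error only. Of the 21 ligands listed, 7 were matched by symbol, and of the interferon-alpha genes Ifnab alone was analysed here.

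Receptors and JAK-STAT genes were well expressed, and all 10 had a log2 fold change above 0 with a median of 0.26, where 71.8% of all genes were above 0. None had an unadjusted limma p under 0.05. Jak2, the IFN-gamma receptor kinase, had 7.69, 12.1 and 9.84 FPKM in NC and 17.4, 13.9 and 10.3 in those labelled SFRP2-siRNA. Ifngr2, a chain of that receptor, had 16.4, 17.6 and 17.4 FPKM in NC and 21.3, 21.4 and 18.4, without overlap. It was the only 1 of the 10 to do so, against 13.9% of all genes. Ifnar1, a chain of the type I receptor, had 8.49, 14.6 and 9.79 FPKM in NC and 16.9, 13.98 and 12.3.

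Among 15 genes of nucleic acid sensing and interferon induction, 3 were higher and 1 was lower at an unadjusted p under 0.05, where 6.72% and 2.86% of all genes were so, and none passed the threshold. Tlr7, the endosomal receptor for single-stranded RNA, had 1.62, 4.49 and 3.56 FPKM in NC and 6.4, 4.69 and 5.64 in those labelled SFRP2-siRNA, a log2 fold change of 0.70 (SE 0.28). Unc93b1, which escorts it to endosomes, had 31.0, 59.5 and 34.6 FPKM in NC and 72.5, 62.8 and 59.0. Irf5, which acts downstream of it, had 8.72, 14.1 and 10.03 FPKM in NC and 19.1, 15.04 and 13.95. Mavs, the adaptor of RIG-I and MDA5, was the lower gene, with a log2 fold change of -0.33 (SE 0.14).

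Of 7 measured brakes on the response, all had a log2 fold change above 0 and 3 had an unadjusted limma p under 0.05. Of all genes, 71.8% were above 0 and 6.72% were higher at that p. Socs1, which inhibits JAK kinases, had 0.826, 1.06 and 0.863 FPKM in NC and 1.7, 1.58 and 1.28 in those labelled SFRP2-siRNA, a log2 fold change of 0.39 (SE 0.12). Socs1 showed no overlap between groups, the only 1 of the 7, where 13.9% of all genes were likewise higher without overlap. For Socs1 NC 2 was only 1.23 times the next NC library. Ptpn6, the phosphatase SHP-1, had 9.81, 17.2 and 12.3 FPKM in NC and 27.9, 19.9 and 17.0. Samhd1, which depletes nucleotides, had 8.23, 18.7 and 10.6 FPKM in NC and 25.3, 19.7 and 17.6.

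Further targets outside the 41 were examined as well. Of 46 further type I targets kept, 45 had a log2 fold change above 0, with a median of 0.51, where 71.8% of all genes were above 0. At an unadjusted limma p under 0.05, 5 were higher and 1 was lower, where 6.72% and 2.86% of all genes were so. NC 2 was the highest NC library in 42 of the 46 but the highest of all 6 libraries in 13, and NC 1 was the lowest of all 6 in 36. These held for 33.2%, 7.07% and 46.9% of all genes. Slfn1, a regulator of T cell growth, had 4.48, 14.5 and 4.02 FPKM in NC and 21.9, 17.6 and 11.9 in those labelled SFRP2-siRNA, and Slfn2 had 32.7, 52.9 and 28.1 in NC and 93.3, 66.7 and 44.1. Ifi27 went the other way, with 125, 110 and 87.9 FPKM in NC and 96.7, 45.4 and 41.2, a log2 fold change of -0.90 (SE 0.34). Of 24 further IFN-gamma targets kept, 22 had a log2 fold change above 0, with a median of 0.27, and none had an unadjusted p under 0.05. Among these NC 2 was the highest NC library in 22 and the highest of all 6 in 4. NC 1 was the lowest of all 6 in 14, or 58.3%, not far from the 46.9% of all genes. H2-T23, an MHC class Ib gene, had 14.7, 30.8 and 20.1 FPKM in NC and 35.1, 33.99 and 28.5, and Gm4951 and Ifi47, both of the IRG family, had log2 fold changes of 0.61 and 0.89.

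Macrophages and other wound cells express many of these targets, and in bulk tissue more cells of a type and more RNA per cell cannot be told apart. Of 14 macrophage markers, all had a log2 fold change above 0, 11 had an unadjusted p under 0.05 and 6 did not overlap between groups, where 71.8%, 6.72% and 13.9% of all genes did so as higher. Their summed level was 1114 to 1802 FPKM in NC and 2005 to 2696 in those labelled SFRP2-siRNA, and no marker was at 0 in every library. Lyz2, Itgam and C1qc, which mark myeloid cells or macrophages, had log2 fold changes of 0.88, 0.96 and 0.56. Of 10 fibroblast markers, all were above 0, 9 had an unadjusted p under 0.05 and 8 did not overlap, with Fbln1, Dcn and Thy1 at 0.61, 0.75 and 0.49. Neutrophil markers summed to 1825, 1724 and 1167 FPKM in NC and 4662, 5582 and 1017 in the siRNA-labelled libraries, lowest in the library labelled SFRP2-siRNA 3. T and NK cell markers were low, with sums of 7.47, 13.7 and 6.78 FPKM in NC and 13.4, 11.7 and 7.83, and only 6 of 14 were kept. Of 9 listed markers of plasmacytoid dendritic cells 4 were kept, 2 above and 2 below 0, with sums of 567.9 to 644.5 FPKM in NC and 365.2 to 737.5 in the siRNA-labelled libraries. Siglech, a defining marker, was below the filter at 0.15 to 0.62 FPKM, so these sums came almost wholly from other listed genes. Whether those genes reflect these cells was not tested. Skeletal muscle markers summed to 3252 to 6522 FPKM in NC and 4411 to 12271 in the siRNA-labelled libraries, and all 9 kept were above 0 with a median of 0.66. Adipocyte markers went the other way, with 9 of 10 below 0, a median of -0.21, and sums of 1865 to 2304 FPKM in NC and 975.4 to 2577 in the siRNA-labelled libraries. The part of these cells in the levels of the members was not tested.

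Set against the macrophage markers on the same centred log2 scale, the type I members were at -0.23, 0.43 and 0.04 in NC and -0.31, 0.02 and 0.05 in those labelled SFRP2-siRNA. NC 2 stood above the other 5 libraries, and the remaining values of both groups overlapped. The IFN-gamma members minus macrophage markers were at -0.0039, 0.41 and 0.16 in NC and -0.23, -0.09 and -0.24 in the siRNA-labelled libraries. Relative to these markers the IFN-gamma members were thus lower in every siRNA-labelled library than in every NC library, the opposite direction to their level itself. Means of this difference were 0.19 ± 0.21 and -0.19 ± 0.08 (SD, n = 3 each), given with no test. Fibroblast markers were at -0.70, 0.08 and -0.47 in NC and 0.45, 0.36 and 0.28 in the siRNA-labelled libraries. In SFRP2-siRNA 1 the IFN-gamma members, at 0.49, lay further above this list than in NC 1, so against it the groups overlapped. The members were also less abundant than the markers, and log2(FPKM + 1) understates the change of weakly expressed genes.

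**Figure D4:**
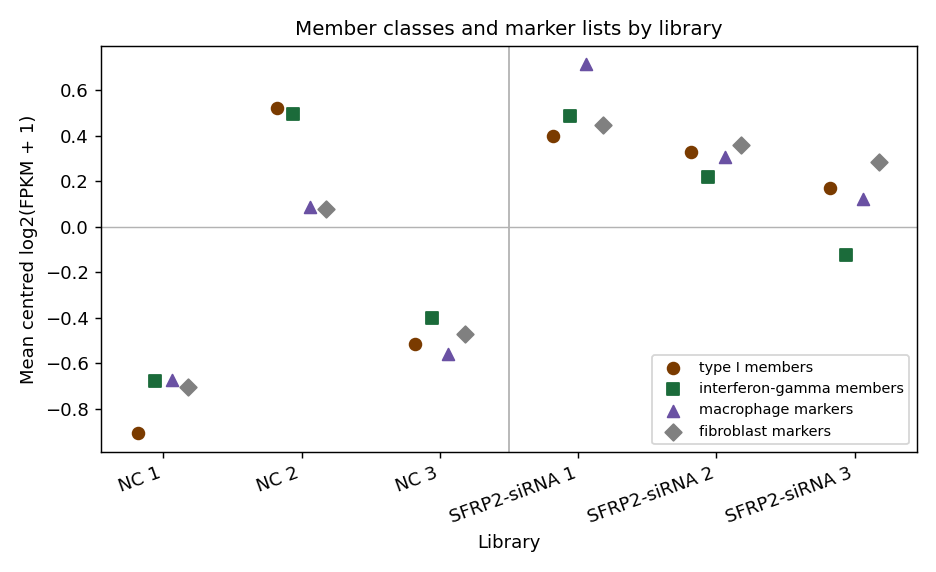
Mean over genes of log2(FPKM + 1), centred on the mean of the 6 libraries, for type I members, IFN-gamma members, macrophage markers and fibroblast markers in each library. In NC 2 both member classes (0.52 and 0.50) lie above both marker lists (0.09 and 0.08), whereas in all 3 siRNA-labelled libraries the macrophage markers lie above the IFN-gamma members.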

How the data were processed

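Wound tissue RNA-seq was analysed in 3 NC and 3 SFRP2-siRNA libraries, grouped by title. The authors deposited 1 table of FPKM values, which were used as deposited. HISAT2 and featureCounts (Subread) are named in the submitters' processing notes. Versions, genome build, annotation and strand setting were not given in the sources used here. The authors used DESeq2, which needs counts. Their thresholds, adjusted p under 0.05 and absolute log2 fold change above 1, were applied here with limma 3.58.1 (R 4.3.3, trend, two-sided) on log2(FPKM + 1), where the change of weakly expressed genes is understated. The filter asked for an average of 0.5 FPKM or more, and p-values were adjusted by Benjamini-Hochberg over all 16005.

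Symbols were found for 32582 of 33184 gene IDs. Gene lengths of GENCODE vM21 gave whole reads (within 0.05 reads, or 0.01% for high values) in all 6 libraries for 96.7% of genes. The test was run on simulated data with independent errors and a log2 change of 2 in 200 genes. That change is larger than any member had here, so this check does not cover changes of the size seen. The members, roles, classes and marker lists were chosen with earlier results of these data known. Library values are given for the 2 members with the smallest p and the most abundant member of each role. They are also given for members with a fold change below 0, Sfrp2, and interferon ligands above 0 in at least 2 libraries. In each further list at most 3 genes, those of lowest p, were to be named. Some of these have fold changes only, and several marker lists are given by counts or sums alone. Ifit1 and Mx1 were added after their values had been seen, and 1 gene that this rule names is not reported here. The alternatives changed the pseudocount (0.1), the filter (none, or 2 FPKM) and the scaling (equal sums, median-of-ratios, quantile), dropped the trend, or used a replicate block, sample weights, leave-one-out fits, narrower classes or, chosen after seeing the data, voom on recovered reads.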

Additional observations from a re-analysis of the deposited data

How the results depend on the processing

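No member passed the threshold under any alternative, and the lowest adjusted p of a member was 0.257. Of 651 fits of single members over 16 alternatives, 644 kept their direction and 7, in 4 members, did not. Cxcl9 was at 0.0324 when libraries were rescaled to equal sums. With estimated sample weights Ifi44 was at -0.023 and Cxcl10 at -0.00721. Leaving out each library in turn, Cxcl9 ran from -0.28 to 0.44, Cxcl10 from -0.0761 (without NC 1) to 0.84 and Usp18 from -0.0429 (without NC 1) to 0.73. The count of members at an unadjusted p under 0.05 ran from 0 to 36 (without NC 2), and that of members whose groups did not overlap from 0 to 40 (without NC 2). Without the library labelled SFRP2-siRNA 2 these counts were 1 and 1, and without SFRP2-siRNA 3 they were 1 and 2. The first count was 1 with the replicate block (Isg20) and 1 with voom on recovered reads (Oas3). Deviations of same-numbered libraries correlated at -0.05, -0.15 and 0.38, so the numbers were not taken as pairs. The relative median stayed above 0 under every alternative, from 0.27 (without NC 1) to 0.93 (without NC 2) for type I and from 0.04 (without SFRP2-siRNA 1) to 0.62 (without NC 2) for IFN-gamma members. The class difference ran from 0.10 (narrower classes) to 0.34. The median of all genes was 0.13 as deposited, 0.0003 under median-of-ratios scaling and 0.20 under equal sums. The causes were not tested. The interferon ligands had at most 10 reads in a library where read numbers are given, too few for a test at this depth.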

Other observations

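Of the 24 further IFN-gamma targets, Wars1 and Lap3 were the 2 with a log2 fold change below 0. Wars1, a tRNA synthetase, had 16.3, 17.4 and 16.6 FPKM in NC and 15.9, 16.1 and 16.1 in those labelled SFRP2-siRNA, lower in every siRNA-labelled library by a log2 fold change of -0.06 (SE 0.11). Lap3, an aminopeptidase, had 54.5, 47.5 and 75.8 FPKM in NC and 25.9, 77.3 and 85.7, with its lowest value in the library labelled SFRP2-siRNA 1. B2m, the light chain of MHC class I, had 1844, 2042 and 1542 FPKM in NC and 2136, 1922 and 1447, a log2 fold change of 0.01 (SE 0.30). These 3 genes were chosen after their values were seen. The 7 members of the GTPase role and the 8 IFIT and OAS members differed in how far the siRNA-labelled libraries spread, with median coefficients of variation of 21.1% and 12.5%.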
